A study of Drosophila melanogaster with 2 samples.

Results

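Tet (FBgn0263392) is a long gene on the minus strand of chromosome arm 3L, at 2786207 to 2879158. All coordinates are those of dm6. It was chosen by the number of peak summits of tagged CG17806 that lie in it. Summits, taken as the interval start plus the deposited summit offset, were counted when they fell inside the gene or no more than 500 bp from either start site. The list of peaks that passed a threshold on the irreproducible discovery rate (IDR), a measure of how alike a peak ranks in both replicates, placed 26 of its 7645 summits there, the pooled list 83 of 30000, the list of replicate 1 80 of 30000 and that of replicate 2 66 of 30000. These counts, the positions and the ranks by peak signal are how Tet was chosen and are given as a description, with no test.

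The peaks come from chromatin immunoprecipitation and sequencing (ChIP-seq) of whole pupae of Drosophila melanogaster aged 24 hours. The flies are a transgenic line that stably expresses CG17806, a zinc-finger protein, fused at its C-terminal end to green fluorescent protein (GFP), and an antibody against GFP was used. There is 1 group of 2 biological replicates, so no condition can be set against another, and a control alignment entered each of the 3 called lists. Whole animals mix all cell types, so a peak does not tell in which cells the protein was bound. The lists carry no read counts, so the depth behind a peak is unknown, and the peak signal serves only to rank peaks within a list.

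Tet enzymes are dioxygenases known in mammals for oxidising 5-methylcytosine in DNA. The fly has a single Tet gene and very little 5-methylcytosine. In flies Tet has been linked to the removal of N6-methyladenine from DNA and to hydroxymethylation of cytosine in messenger RNA, and it is known for roles in the nervous system. Its transcripts start at a distal or a proximal start site, and the long protein made from the distal one carries a CXXC zinc finger, a DNA-binding domain that the short protein lacks.

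In Ensembl release 115 the gene spans 92952 bp and has 6 transcripts. Of these, 4 start at the distal site at 2879158 and 2 at the proximal site at 2821103, which lies 58055 bp further downstream, inside intron 5 of the long transcripts. Introns are numbered here along Tet-RE, which has 11 exons. The exons of all transcripts cover 13823 bp, or 14.9% of the gene, and no other annotated gene overlaps it.

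The sequences under 8 summits, picked by rank, start site or AT content, are given as examples. Each line gives the 101 bases centred on a summit, from the Release 6 assembly, on the plus strand of dm6 and 5′ to 3′, so opposite to the direction of transcription. Capitals mark runs of 6 or more bases that are all A or T. Those at 2824220, 2823194 and 2847457 are the IDR peaks of best rank in Tet, and that at 2821383 is the one at the proximal start site. The summit at 2830204 shares the highest AT content of the 26 with that at 2849097, and 2831833 has the lowest AT content relative to its flanks. The summit at 2833704 is the weakest IDR peak in the gene, and 2879350 is the peak at the distal start site, which is in the pooled list but not in the IDR list.
Summit 2824220 (chr3L:2824170-2824270): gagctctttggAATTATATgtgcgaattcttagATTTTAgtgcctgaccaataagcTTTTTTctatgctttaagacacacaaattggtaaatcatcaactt
Summit 2823194 (chr3L:2823144-2823244): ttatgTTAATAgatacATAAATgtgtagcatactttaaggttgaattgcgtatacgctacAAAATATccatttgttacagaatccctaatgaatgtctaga
Summit 2847457 (chr3L:2847407-2847507): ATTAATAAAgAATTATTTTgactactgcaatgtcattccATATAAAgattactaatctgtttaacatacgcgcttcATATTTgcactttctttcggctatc
Summit 2821383 (chr3L:2821333-2821433): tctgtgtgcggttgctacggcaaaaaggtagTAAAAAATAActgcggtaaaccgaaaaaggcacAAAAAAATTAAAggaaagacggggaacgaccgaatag
Summit 2830204 (chr3L:2830154-2830254): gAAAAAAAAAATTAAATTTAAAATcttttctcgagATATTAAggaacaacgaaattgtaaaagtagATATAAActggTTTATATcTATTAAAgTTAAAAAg
Summit 2831833 (chr3L:2831783-2831883): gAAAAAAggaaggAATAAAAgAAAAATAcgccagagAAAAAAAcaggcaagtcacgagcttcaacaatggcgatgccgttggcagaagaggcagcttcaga
Summit 2833704 (chr3L:2833654-2833754): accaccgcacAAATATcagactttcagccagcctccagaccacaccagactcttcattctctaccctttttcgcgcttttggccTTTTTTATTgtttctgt
Summit 2879350 (chr3L:2879300-2879400): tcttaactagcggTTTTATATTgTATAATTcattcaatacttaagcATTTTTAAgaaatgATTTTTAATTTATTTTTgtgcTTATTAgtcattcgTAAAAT

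All 26 IDR summits lay in introns of the long transcripts and none in an exon. Intron 5, 54.9 kb long and 59.0% of the gene, held 20 of them. Introns 1, 3 and 4 held 1, 3 and 2, and the other 6 introns held none, the longest of those being intron 6 at 1.26 kb. Only 3 summits lay within 500 bp of an exon, and the median distance to the nearest exon was 3753.5 bp. By annotation, 25 were intronic and 1, at 2821383, fell within 500 bp of the proximal start site, 280 bp upstream of it. The window at the distal start site held no IDR summit.

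**Figure D1:**
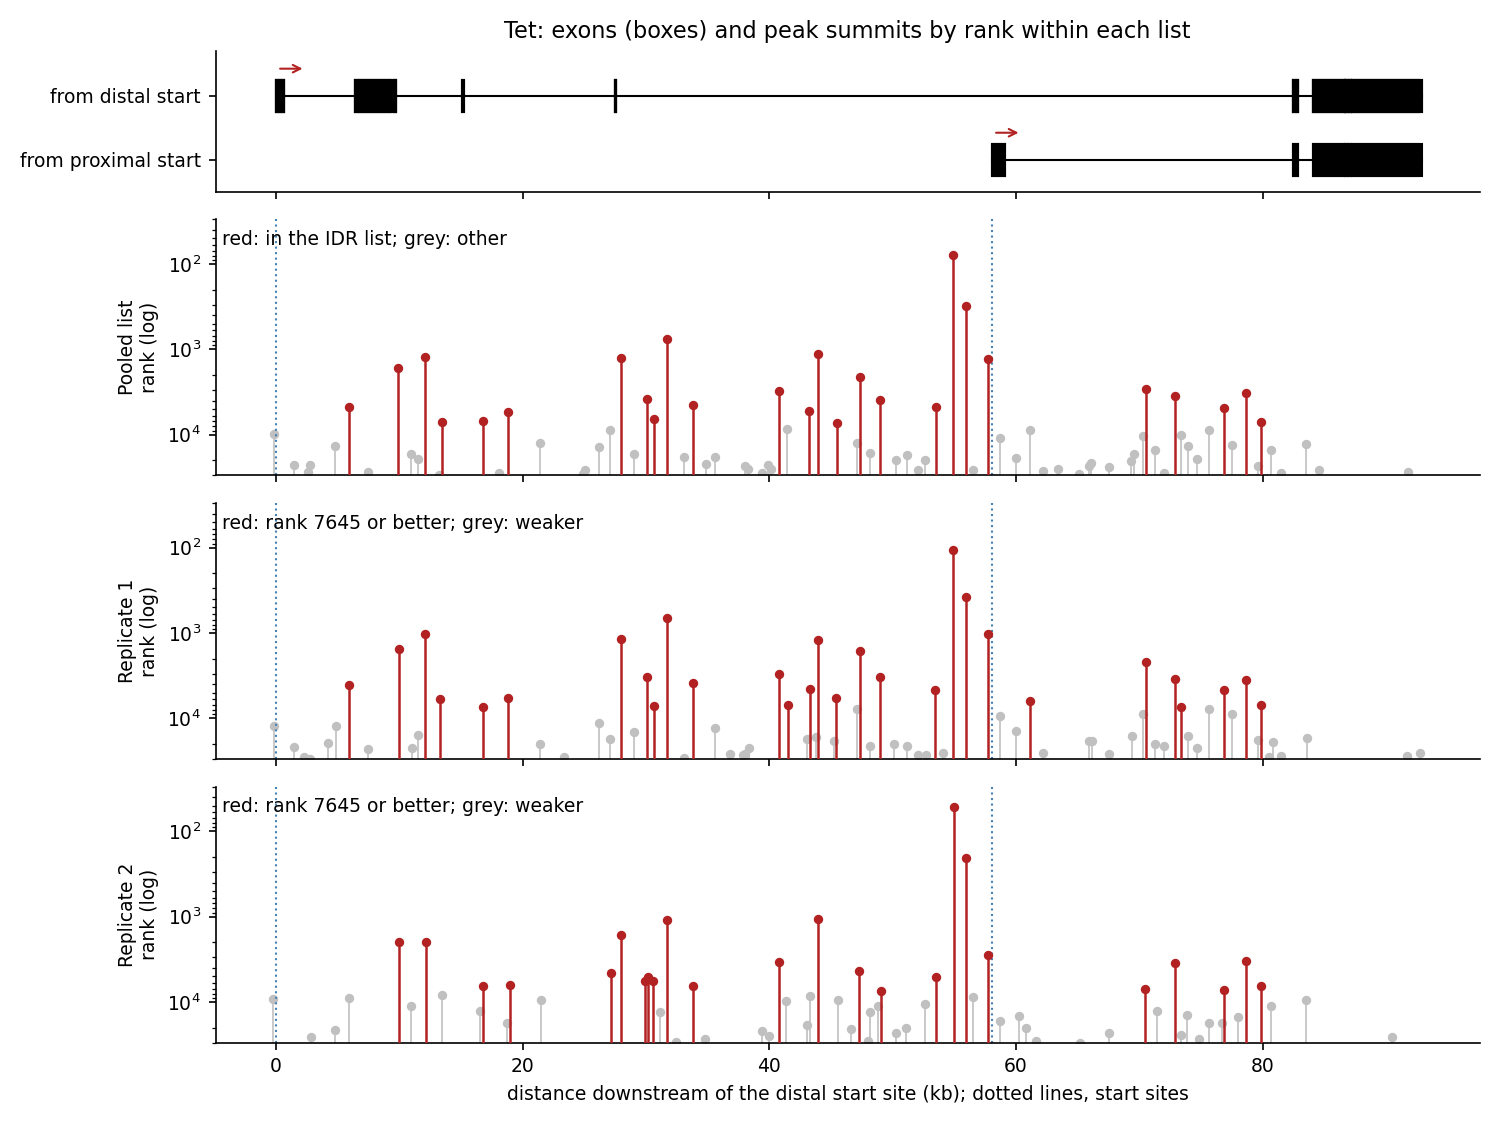
Exons of the transcripts from the distal and the proximal start site of Tet (top) and the rank of each peak summit within the pooled list and the lists of replicates 1 and 2 (log axes, better ranks higher), by distance downstream of the distal start site in kb. Red marks the 26 IDR summits in the pooled list and ranks of 7645 or better in the replicate lists, and the summits of best rank in all 3 stand just upstream of the proximal start site.

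The best-ranked peaks stood next to each other just upstream of the proximal start site. The peak spanning 2823884 to 2824410 had its summit 3117 bp upstream of that site and ranked 78 of 30000 in the pooled list, 108 in replicate 1 and 52 in replicate 2. The replicate summits lay 8 bp from the pooled one on either side. The next, spanning 2822909 to 2823418, had its summit 2091 bp upstream and ranked 309 in the pooled list, 384 in replicate 1 and 206 in replicate 2. The peak closest to the start site, spanning 2821213 to 2821575, ranked 1309, with 1018 in replicate 1 and 2839 in replicate 2. The first pair thus ranked better in replicate 2 and the promoter peak better in replicate 1.

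Divided wherever neighbouring IDR summits were more than 5 kb apart, a distance chosen after the positions were seen, the summits formed 4 groups. The group nearest the 3′ end held 5 summits over 9329 bp, all downstream of the proximal start site, and its best rank was 2888. A stretch of 12763 bp without an IDR summit separated it from the next group. That group, which begins at the proximal start site, held 10 summits over 17005 bp, among them the best-ranked pair. Beyond a gap of 6974 bp lay 5 summits over 5801 bp at the upstream end of intron 5, and beyond 9184 bp the last 6, over 12926 bp in introns 4, 3 and 1.

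In the group at the proximal start site, the peak with its summit at 2835178 ranked 1133 in the pooled list, with 1212 in replicate 1 and 1061 in replicate 2. The summit at 2831833 ranked 2141, with 1643 in replicate 1 and 4303 in replicate 2. In the group at the upstream end of the intron, the summit at 2847457 ranked 761, with 672 and 1105 in replicates 1 and 2. These peaks were in the better part of both replicate lists, but their order was not the same in each.

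The summit at 2851163, 396 bp from the exon at the upstream end of intron 5, ranked 1280, with 1191 in replicate 1 and 1630 in replicate 2. In intron 3, the summit at 2867055 ranked 1223, with 1041 and 1974, and the one at 2869239, 210 bp from an exon, ranked 1660, with 1529 and 1973. Intron 1 held a single IDR summit, at 2873273 and 5885 bp downstream of the distal start site, with rank 4809 and with 4060 and 8855 in replicates 1 and 2.

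The 25 distances between neighbouring IDR summits had a median of 2056 bp and went from 607 to 12763 bp. Of these, 12 were under 2 kb and 2 under 1 kb, between the summits at 2848490 and 2849097 and between those at 2835178 and 2835899. The median distance in each of the other 273 protein-coding genes with at least 5 IDR summits had a median of 2550.5 bp, and in the 78 of them that are similar to Tet in length (62.0 to 139.4 kb) of 3083 bp. Of the genes of similar length with the most IDR summits, Tlk (1074.5 bp), CG1677 (1135 bp) and sbb (1750.5 bp) had a shorter median than Tet. Snoo (2262 bp), CG43658 (2645 bp) and hth (4214.5 bp) had a longer one. The spacings in Tet are a description of the summits that it was chosen for.

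The strong summits were denser upstream than downstream of the proximal start site, and the weaker ones were not. The 30.5 kb of intron 5 upstream of that site held 15 IDR summits, or 0.493 per kb, and the 24.4 kb downstream of it 5, or 0.205 per kb. Of the pooled summits outside the IDR list, the upstream stretch held 17 (0.558 per kb) and the downstream stretch 22 (0.901 per kb). The 22 include the summit at 2820474, in the 5′ UTR of the short transcripts. The whole pooled list had similar densities, with 32 summits upstream (1.05 per kb) and 27 downstream (1.11 per kb). The weaker set is what the IDR list leaves of these, so the patterns of the strong and weaker summits are not independent. The top 7645 peaks of replicate 1 gave 16 upstream and 7 downstream, and those of replicate 2 gave 14 and 5. These are counts along 1 gene and were not tested. A or T made up 57.4% of the upstream and 61.6% of the downstream stretch.

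**Figure D2:**
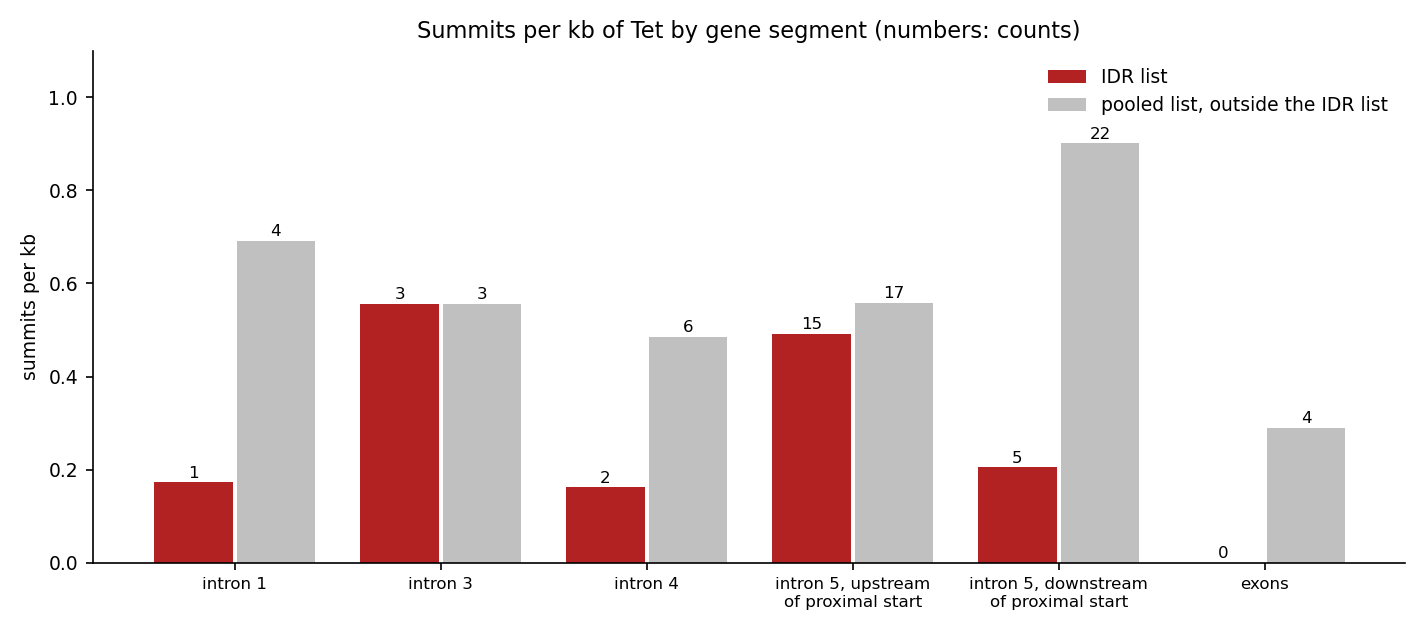
Summits per kb in segments of Tet, for the IDR list (red) and for the pooled list outside the IDR list (grey), with the number of summits above each bar. The stretch of intron 5 upstream of the proximal start site held 15 IDR summits and the stretch downstream 5, and exons held 0. The downstream stretch contains the first exon of the short transcripts, so the weaker summit at 2820474 is counted both there and in exons.

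Both replicates had most of these summits. Of the 26, 25 had a summit of replicate 1 within 100 bp, 25 had one of replicate 2 and 24 (92.3%, Wilson 95% interval 75.9 to 97.9, counting error only) had both. Among all IDR peaks that share was 92.3%, and among the 3449 other intronic IDR peaks 94.2%, so the share in Tet was at the background. The IDR list was made from the replicate lists, so this share is no independent evidence. The median distance to the matching summit was 3 bp in replicate 1 and 20 bp in replicate 2.

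The summits that lacked a match, at 2833704 and at 2865693, were 150 bp from the nearest summit of replicate 2 and 146 bp from that of replicate 1. They belong to the 3 IDR peaks in Tet that have the commonest width of the pooled list, 376 bp, and both rank near the end of the IDR list, at 7234 and 7057. The other one, at 2860347, had summits of replicate 2 on either side, 63 and 142 bp away, with ranks of 17596 and 6348. The summit at 2830204 likewise lay between a pair of summits of replicate 2, 99 bp away with rank 10973 and 102 bp away with rank 7386. In these 2 cases the nearer summit of replicate 2 had the worse rank of the pair.

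The ranks of the 26 summits in the 2 replicates were related but not equal. A match was defined by a distance of 100 bp, so agreement in position is not compared with agreement in rank. In replicate 1, 25 of the 26 summits had a match that ranked within the top 7645, and in replicate 2, 20 had one. Of the 24 summits matched in both, 17 ranked better in replicate 1 and 7 in replicate 2. Over all IDR peaks matched in both, replicate 1 ranked better in 55.2%. The ranks of the 24 had a Spearman rho of 0.77, close to the 0.80 over all 7056 matched IDR peaks. This is a correlation across peaks that share their libraries, given as a description. The summit at 2808620, for one, ranked 2216 in replicate 1 and 7084 in replicate 2. Every matched or nearest summit of replicate 1 was at the ceiling of −log10 q in that list, 4.46. Of those of replicate 2, 15 were at the ceiling of their list, 4.09, and the lowest, near 2860347, was at 0.625. The shares of all IDR peaks within the top 7645 and at the ceiling are not given here. The counts of both kinds are therefore not read as particular to Tet.

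**Figure D3:**
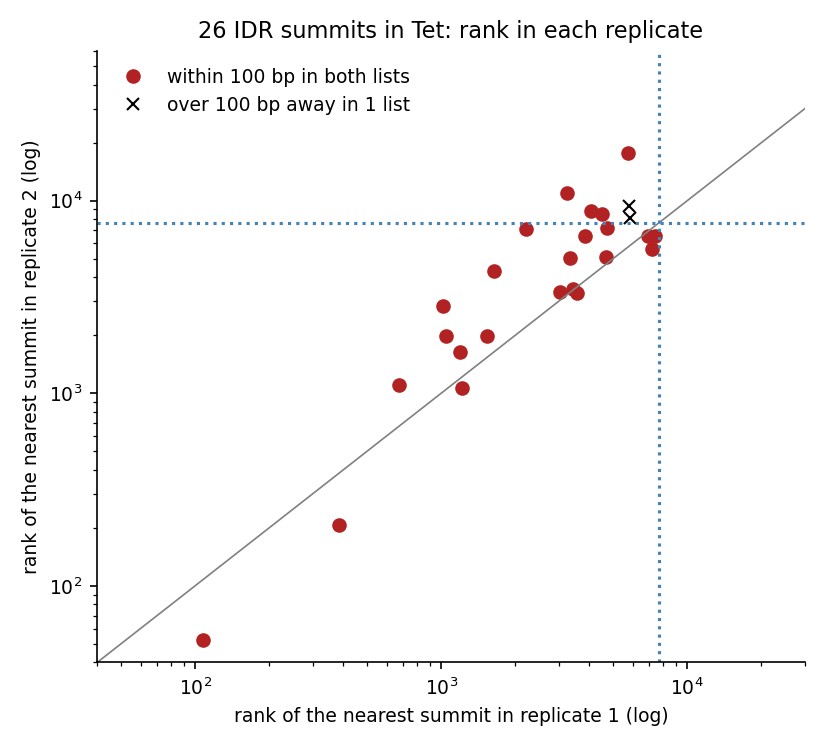
Rank of the nearest summit in replicate 1 (x axis) and in replicate 2 (y axis) for each of the 26 IDR summits in Tet, on log axes, with the line of equal rank in grey and dotted lines at rank 7645. Red circles are the 24 summits within 100 bp in both lists and crosses the other 2. Of the circles, 17 lie above the line, with a better rank in replicate 1.

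The 26 summits were spread over the whole range of the IDR list. Split into 5 parts of 1529 peaks each, from strongest to weakest, the list placed 7, 3, 6, 5 and 5 of its Tet summits in them. The median rank was 3642, against 3861 for other intronic IDR peaks. The weakest IDR peaks in Tet, at 2833704 and 2799291, had signals of 150.4 and 153.2, and the last peak of the list had 141.4. The strongest Tet peaks left out of it were at 2837698, 2803516, 2852030 and 2818055, with signals of 120.3 to 123.7 and ranks of 8628 to 8841.

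The pooled list held 57 more summits at Tet. Of these, 33 had a q-value above 0.05, 15 were matched within 100 bp by both replicates, 26 in replicate 1 alone, 7 in replicate 2 alone and 9 in neither. The same shares over all pooled peaks outside the IDR list are not given here, so these counts are not read as particular to Tet. Of the 57, 4 were in exons: 1 in the 3′ UTR, 1 in the 5′ UTR of the short transcripts, with rank 10905, and 2 in coding exons with ranks of 25957 and 27195. The 12763 bp without an IDR summit held 12 pooled summits, with a best rank of 8841. More than 100 bp from its ends, the best rank was 6344 in replicate 1 and 14501 in replicate 2.

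The distal start site had a weak peak in its window, with its summit at 2879350, 192 bp upstream. It ranked 9901 in the pooled list, 12219 in replicate 1 and 9298 in replicate 2. A stronger IDR peak stood outside the window, spanning 2879802 to 2880078, and its summit was 796 bp further up than the distal start site. It ranked 1694 in the pooled list, 1695 in replicate 1 and 1718 in replicate 2, and lies between Tet and the non-coding RNA gene lncRNA:CR44531. The neighbouring protein-coding genes, Pgant6, which encodes a polypeptide N-acetylgalactosaminyltransferase, 197 bp from the 3′ end of Tet, and spz5, which encodes a ligand of the Spätzle family, 4483 bp from its 5′ end, had no IDR summit, neither inside them nor at their start sites.

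The IDR summits in Tet lay on average in stretches richer in A and T than their flanks. In the central 101 bases the AT content averaged 67.9% (SD 6.94 over 26 summits, from 54.5% to 80.2%), against 52.9% (SD 7.53) in a pair of flanks centred 250 bp to each side and 57.5% over the gene. The 3449 other intronic IDR summits had 69.0% (SD 7.25) at the centre and 54.0% in the flanks. The centre was richer than the flanks at 23 of the 26 summits (88.5%), against 90.6% of the other intronic ones.

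The 57 weaker pooled summits at Tet had 59.4% (SD 7.96) at the centre and 60.8% in the flanks, and the centre was richer at 25 of them. Of these 57, 54 lay in peaks of the commonest width, 376 bp, against 3 of the 26 IDR summits, and 33 had a q-value above 0.05. The 2 sets thus differ in more than rank. The IDR summits with a centre no richer than its flanks were at 2831833, 2833704 and 2800492. The first had 56.4% at the centre and 64.7% in the flanks, and its marked runs lie on one side of the summit only. The last had 59.4% at the centre and 59.8% in the flanks, which is nearly equal. By contrast, the summit at 2849097 had 80.2% at the centre and 43.1% in the flanks. Summits in 1 gene share their source, and these shares were not tested. Soft-masked repeat sequence made up 28.2% of the central windows at Tet and 25.1% at other intronic summits.

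**Figure D4:**
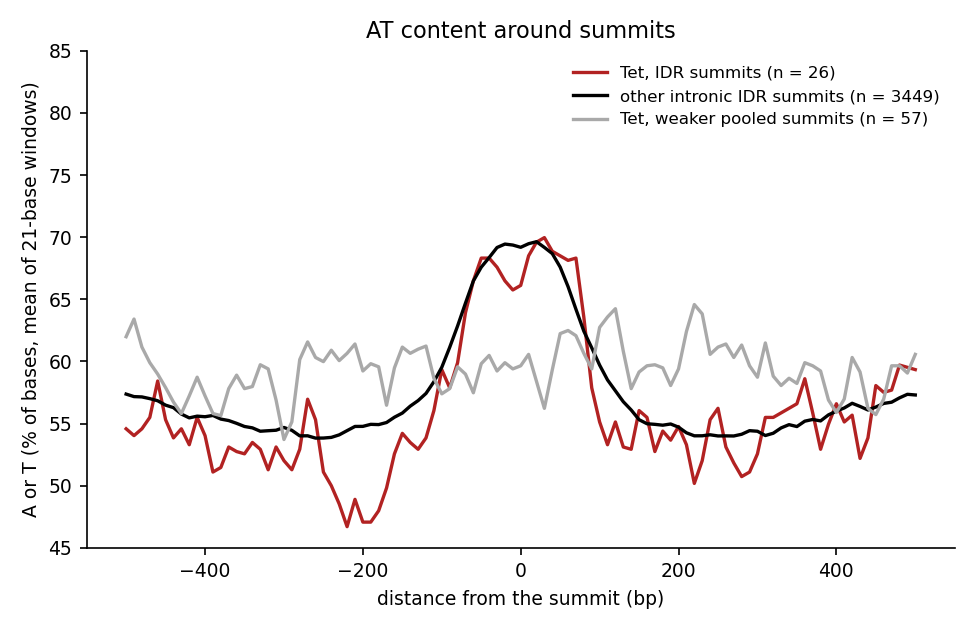
Mean share of A or T in windows of 21 bases, by distance from the summit in bp, for the 26 IDR summits in Tet (red), the 3449 other intronic IDR summits (black) and the 57 weaker pooled summits at Tet (grey). Both sets of IDR summits rise at the centre, with 67.9% and 69.0% within 50 bp, and the weaker summits, with 59.4%, do not. Of the weaker summits, 54 lie in peaks of 376 bp, against 3 of the IDR summits in Tet.

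None of 14 motifs searched was in more than 7 of the 26 windows. Of these motifs, looked for on both strands within 50 bp, TATAAA, the TATA box, was in 7 (26.9%), against 24.99% of other intronic IDR summits and 10.4% of 920 windows of the same length tiled over the gene. Runs of 7 A, AAAAAAA, were in 4 windows (15.4%), against 17.8% and 12.1%. The tiles cover the gene, which is 57.5% A or T, and the summit windows averaged 67.9%. For motifs of A and T alone, summits and tiles thus also differ in base composition, and the shares were not tested. The repeat GAGAG was in 2 windows, TGCATA likewise in 2 and the homeodomain core TAATTA also in 2. The repeat ACACACA was in 1 window, that of the best-ranked summit. The other 8 were in none: CGATA and the longer TATCGATA that contains it, then GATAAG as well as CAGGTA, next GGTCACACT followed by CACGTG, and last CAGCTG along with GCATGC. In 26 windows counted as independent, a count of 0 allows a share of up to 11.5% (3 of 26, counting error only). That is above the share of each of these among other intronic IDR summits, which was at most 9.71%. Summits in 1 gene share their source, so the limit is only a rough guide. In 10 windows none of the 14 was found, among them those of the second-ranked summit and of the weakest one printed above.

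Few genes held as many IDR summits. Of 13945 protein-coding genes, 2 (0.0143%) had at least 26 in the gene, Tet and kirre, which encodes a cell adhesion protein of the immunoglobulin family and had 35 in 394.1 kb. The count in Tet is what it was chosen for, so nothing is read from this. Among the 183 other genes between 62.0 and 139.4 kb long, the median was 3, 61 had none and the highest was 23. Per kb, Tet had 0.280, against a median of 0.0400 in those genes. Among the 1013 protein-coding genes of at least 20 kb, it ranked 27th by this measure, so some shorter genes were denser.

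The genes most like Tet in this count, within that range of length, were CG43658 and Snoo with 23 each and CG1677, hth, sbb and Tlk with 21 each. Snoo encodes a Smad-binding co-repressor of the Ski family, hth a homeodomain protein, sbb a nuclear co-repressor and Tlk a Tousled-like kinase. Tlk was denser than Tet, with 0.301 per kb, and CG1677 and hth less dense, with 0.168 and 0.159 per kb. Taking 7645 peaks from the top of each replicate list, 1 and then 2, Tet had 29 and 24, CG43658 20 and 24 and Snoo 23 and 18. In replicate 2 alone Tet and CG43658 thus had the same number. The best rank in Tet, 78, compared with 90 in CG1677, 137 in Snoo, 207 in Tlk, 213 in sbb, 646 in CG43658 and 1165 in hth. Among the strongest 25% of IDR peaks, however, CG1677 and sbb had more summits than Tet, 12 each against 8. CG43658 had 5 of these, Snoo and Tlk 4 each and hth 2. By single introns, intron 5 of Tet with 20 summits shared rank 3 among 47308 introns with introns of CG1677 and sbb, after introns of Snoo and kirre with 23 each.

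**Figure D5:**
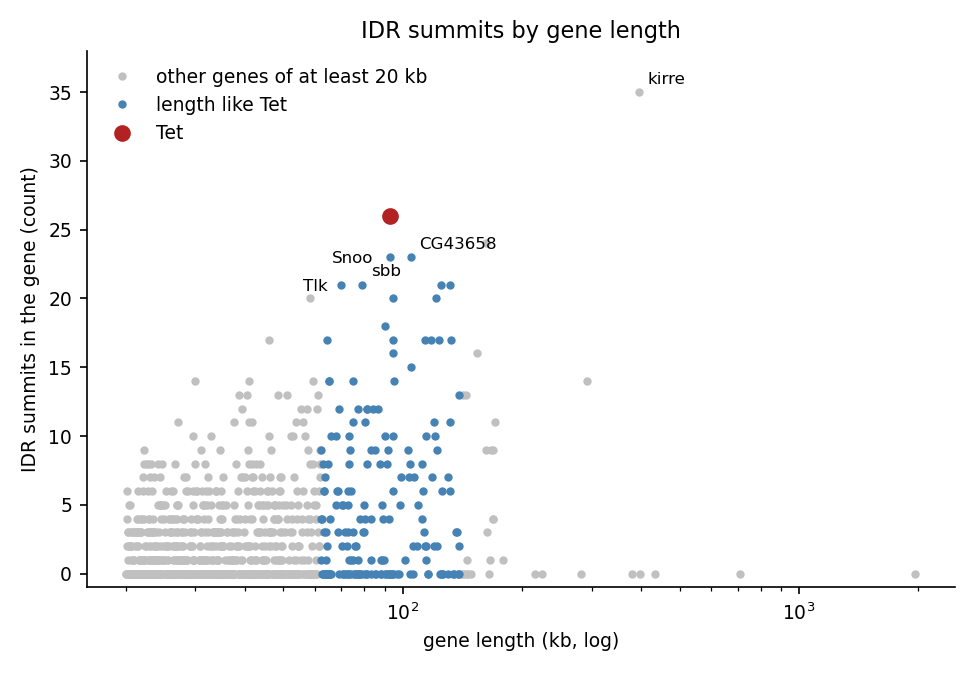
IDR summits per gene against gene length in kb (log axis) for the 1013 protein-coding genes of at least 20 kb. Tet (red, 26 summits in 92.95 kb) stands above all genes of similar length (blue, at most 23 summits), and only kirre, with 35 in 394.1 kb, has more.

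Genes linked to nucleic acid methylation or known as partners of Tet were bound at their start sites about as rarely as genes in general. Of a list of 20 such genes besides Tet, 3 (15%) had a start site with an IDR summit no more than 500 bp away, against 19.5% of all protein-coding genes. They were Nsun5, which encodes an RNA cytosine methyltransferase, fl(2)d, which encodes a subunit of the messenger RNA N6-adenosine methylation complex, and MBD-like, which encodes a protein with a methyl-CpG-binding domain. Tet itself was bound in this sense through the summit 280 bp upstream of its proximal start site. The list includes genes for adenosine methylation in RNA, which is not among the modifications linked to Tet above.

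The summit at Nsun5 lay 90 bp upstream of the start site and ranked 1331 in the pooled list, 1266 in replicate 1 and 1485 in replicate 2. That at fl(2)d lay 187 bp upstream and ranked 2834, with 4730 in replicate 1 and 1382 in replicate 2. That at MBD-like lay 91 bp upstream and ranked 6516, with 10215 and 4235 in replicates 1 and 2. The other 17 had none, AlkB, for a dioxygenase that removes alkyl groups from nucleic acids, and ash1, for a histone methyltransferase, among them. Of the 20 genes, 4 had an IDR summit inside the gene. The share of all protein-coding genes with one inside is not given here, so nothing is read from this count. Among the 4, trx had 7 IDR summits in 23.5 kb, or 0.297 per kb, and jumu 5 in 11.4 kb, or 0.437 per kb. Mi-2 had 3, or 0.107 per kb, and fl(2)d 1, or 0.203 per kb. The first pair encode a histone methyltransferase of the Trithorax group and a forkhead protein, and Mi-2 encodes a chromatin remodelling ATPase. Apart from fl(2)d they are named after their values were seen. Per kb trx and jumu were above the 0.280 of Tet, and Mi-2 and fl(2)d below it.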

How the data were processed

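The authors called peaks on dm6 for each replicate and for both together, each time with a control alignment, and derived the IDR list from these 3 lists, per the deposited file descriptions. Aligner, caller and IDR threshold: not given in the sources used here. The deposited peak signal has no stated scale and only ranks peaks within a list. In each list the −log10 q-value as deposited has an upper limit, and all peaks of the IDR list stand at that of their own list. The deposited summit offset gave positions, written 1-based. Genes came from Ensembl release 115 and sequence from the Release 6 assembly. The depth of the samples is unknown, so no value here has a depth behind it.

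Counts, distances, ranks and base composition were computed with Python 3.11.15, numpy 2.4.6 and scipy 1.17.1, and the functions were tested on simulated data. Summits within 100 bp were called shared. Genes similar in length were those from 2/3 to 1.5 times that of Tet. No test was run, since the choice of Tet rests on these lists and summits of 1 gene are not replicates. Tet, the gene list, the motifs and the measures were chosen with earlier results of these data known. Genes named are Tet, its neighbours, the 5 of similar length with the most IDR summits and sbb, tied with the last of them, bound members of the related list and its first 2 unbound by alphabet, and genes that rank beside Tet. Alternatives were other distances, windows and lists, and each replicate alone.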

Additional observations from a re-analysis of the deposited data

How the results depend on the processing

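The strongest 25% of IDR peaks placed 8 summits at Tet, with a median spacing of 3706 bp and 0.0861 per kb, and Tet then ranked 5th among genes by count. The pooled list gave 83 summits, 951.5 bp, 0.882 per kb and rank 3. By intron length alone the density was 0.329 per kb, and by summits per kb among genes of at least 20 kb Tet ranked 27th. The AT content at summits was 65.5% within 100 bp and 59.4% at the pooled summits outside the IDR list. With as many top peaks of either replicate alone as the IDR list holds, Tet had 24 to 29 summits, a median spacing of 1860.5 to 2142 bp, 0.258 to 0.312 summits per kb, rank 2 and 65.2% to 67.1% A or T. With support required in 1 replicate alone, 25 summits had it in each case. Support in both replicates went from 19 summits within 50 bp to all 26 within 200 bp, and was 20 by reciprocal overlap of 50%. Of 31 alternatives over 6 results, 18 kept their value within 1.5 times for counts, or within the SD of the 2 replicates for the rest. That SD comes from the same values of each replicate alone that are among the alternatives, and it widens as the replicates differ. For these alternatives the count is therefore no independent check. No paired analysis was possible because there is 1 group. The unknown depth limits all of these values.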

Other observations

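Ranked by how many of the 26 windows hold them on either strand, words of 6 bases were led by AAATAT in 14 windows (53.8%), AAAAAG in 13 (50%) and AAAATA in 13 (50%). Their shares among the 3449 other intronic IDR summits were 35.1%, 21.2% and 39.0%. The words were chosen for their count in Tet, so the shares there are a description and were not tested. Of the top 7645 peaks of replicate 1, 29 were at Tet, and 20 of these had one of the top 7645 summits of replicate 2 within 100 bp. Of the 24 of replicate 2, 20 had one of replicate 1. In each replicate 4 of these top summits had no IDR summit in Tet within 100 bp.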
